A study of Mus musculus with 35 samples.

Results

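The phagocyte NADPH oxidase genes Cybb, Cyba, Ncf1, Ncf4, Rac1 and Rac2 were followed through 10 groups of mouse bone marrow libraries. The 6 genes were picked by their Entrez identifiers from the 24454 genes of the expression table, and all 6 passed the filter on low values in every comparison. The oxidase is a membrane enzyme of neutrophils, monocytes and macrophages that passes electrons from NADPH across the phagosome membrane to oxygen and so makes superoxide, the first product of the respiratory burst. Its catalytic core is flavocytochrome b558, a heterodimer of gp91phox (Cybb) and p22phox (Cyba). In resting cells the core is silent. On stimulation the cytosolic subunits p47phox (Ncf1, the organizer that docks on p22phox) and p40phox (Ncf4, which binds the phagosome lipid phosphatidylinositol 3-phosphate) move to it together with a GTP-loaded Rac protein. Rac2 is restricted largely to blood cells, whereas Rac1 is present in most cell types. Loss of a phox subunit causes chronic granulomatous disease, in which phagocytes fail to kill certain bacteria and fungi.

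All mice were C57BL/6, and the cells had been grown by transplantation in vivo, with 1 of 3 leukemia fusion genes whose expression could be regulated. The fusions were NUP98-NSD1, NUP98-JARID1A and NUP98-DDX10. Each had 4 libraries of untreated mice (1 titled day 3 and 3 titled day 5), 3 of mice given doxycycline at 4 mg/ml for 3 days and 3 of mice given the same dose for 5 days. A further 3 libraries are titled as controls; their genotype label lists the 3 fusions, with the helicase number varying between their labels, and no treatment is given for them, which leaves their cells unclear. RNA came from bone marrow cells sorted for GFP and CD45.2, and poly-A libraries were made by a stranded method. The labels do not number animals or primary leukemias, and the promoter that drives each fusion is not given in the sources used here. Values are the authors' normalized counts (reads divided by 1 size factor per library). Fold changes are log2 differences of group means of log2(value + 1), a value after ± beside them is the standard error, and a gene is said to rise or fall where its Benjamini-Hochberg adjusted p over all 12687 features tested was under 0.05. In RNA from many cells at a time, fewer cells of a type and less RNA per cell cannot be told apart.

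The libraries held 12043487 to 28903870 reads in genes. Transcripts of each fusion construct fell with doxycycline, the NUP98-NSD1 construct counting 54846 ± 2575 when untreated (SD, n = 4) and 46.5 ± 10.1 at day 5 (SD, n = 3), and the doxycycline libraries also held few eGFP reads (3.15 ± 0.936 in NUP98-DDX10 at day 5 against 10511 ± 3016 untreated). Control replicate 3 stood apart from the other 2 controls. Its summed B cell markers came to 88258 normalized counts against 19076 and 21052, its erythroid markers to 23227 against 2771 and 4255, and its mature neutrophil markers to 276342 against 3171540 and 3466130. In the 30 fusion libraries the B cell sum stayed between 1018 and 2401, and the erythroid sum between 8.74 and 210.3. Where leaving out control replicate 3, or replicate 1 of NUP98-JARID1A day 5, changed a call described here, that is said beside it.

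After 5 days of doxycycline the oxidase genes stood higher on average, with the largest mean change in the catalytic subunit gene Cybb and a mean change near 0 in Rac2. In the mean of the 3 fusions 4 of the 6 genes rose and none fell: Cybb, Rac1, Ncf4 and Cyba. The background for a rise in that comparison was 22.6% of 12682 genes. Their median log2 fold change was 0.37, beside -0.0036 over all genes tested. The count was 5 of 6, with Ncf1 added, without control replicate 3 and also without NUP98-JARID1A day 5 replicate 1. At day 3 only Rac1 rose, against a background of 8.67%, and the median was 0.21 beside -0.00089. Without control replicate 3, which enters the spread shared by all groups, the day 3 count was 3 of 6 (Cybb, Ncf4 and Rac1). It was 0 of 6 without NUP98-DDX10 day 3 replicate 2 or without NUP98-JARID1A day 3 replicate 1, so the day 3 call of Rac1 depended on single libraries.

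The number of genes called differed between the fusions, which does not by itself test a difference in their effects. Doxycycline for 5 days raised 5 of the 6 genes in NUP98-JARID1A (background 20.1% of genes), 2 of 6 in NUP98-NSD1 (Cybb and Rac1, background 13.5%) and 0 of 6 in NUP98-DDX10 (background 6.49%). In NUP98-NSD1 it was 3 of 6, with Ncf4 added, without control replicate 3, and in NUP98-JARID1A 6 of 6 without replicate 1 of day 5. After quantile normalization 3 of the NUP98-JARID1A rises did not pass. They were Cyba (0.25 (limma adjusted p = 0.23)), Ncf1 (0.41 (limma adjusted p = 0.1165)) and Rac1 (0.24 (limma adjusted p = 0.0678)). Rac2 was then lower (-0.47 (limma adjusted p = 0.0173)). In NUP98-DDX10 0 of 6 had an unadjusted p under 0.05 in limma, and edgeR and DESeq2 also called 0. Cybb passed there without control replicate 3. Library by library, all day 5 values lay above all untreated libraries for Cybb, Ncf1, Ncf4 and Rac1 in NUP98-JARID1A (4 of 6, beside 19.3% of all genes), for every gene but Rac2 in NUP98-NSD1 (5 of 6, beside 21.8%), and for Cybb and Rac1 in NUP98-DDX10 (2 of 6, beside 18.7%). For day 3 no such share of all genes is given, so separations from the untreated libraries described for that day stand without a background. The effect of doxycycline at day 5 differed between the fusions for Cybb (F-test, limma adjusted p = 0.0245) and Ncf4 (F-test, limma adjusted p = 0.0418), 2 of 6 genes where 25.9% of all genes differed. The Cybb call was lost without untreated NUP98-JARID1A replicate 3 (limma adjusted p = 0.0515) and the Ncf4 call without any 1 of 13 libraries (limma adjusted p from 0.0515 to 0.135). Without control replicate 3 the day 5 effect differed for 4 genes, with Ncf1 (limma adjusted p = 0.00057) and Rac1 (limma adjusted p = 0.00214) added, and without NUP98-JARID1A day 5 replicate 1 it also differed for Rac2 (limma adjusted p = 0.0338). At day 3 the F-test passed for none of the 6 (background 7.05%; unadjusted limma p under 0.05 for Ncf4 alone, and 0 calls in edgeR). It passed there for Cybb (limma adjusted p = 0.000955) and Ncf4 (limma adjusted p = 0.00639) without control replicate 3, and for the same 2 genes in a fit without the controls.

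**Figure D1:**
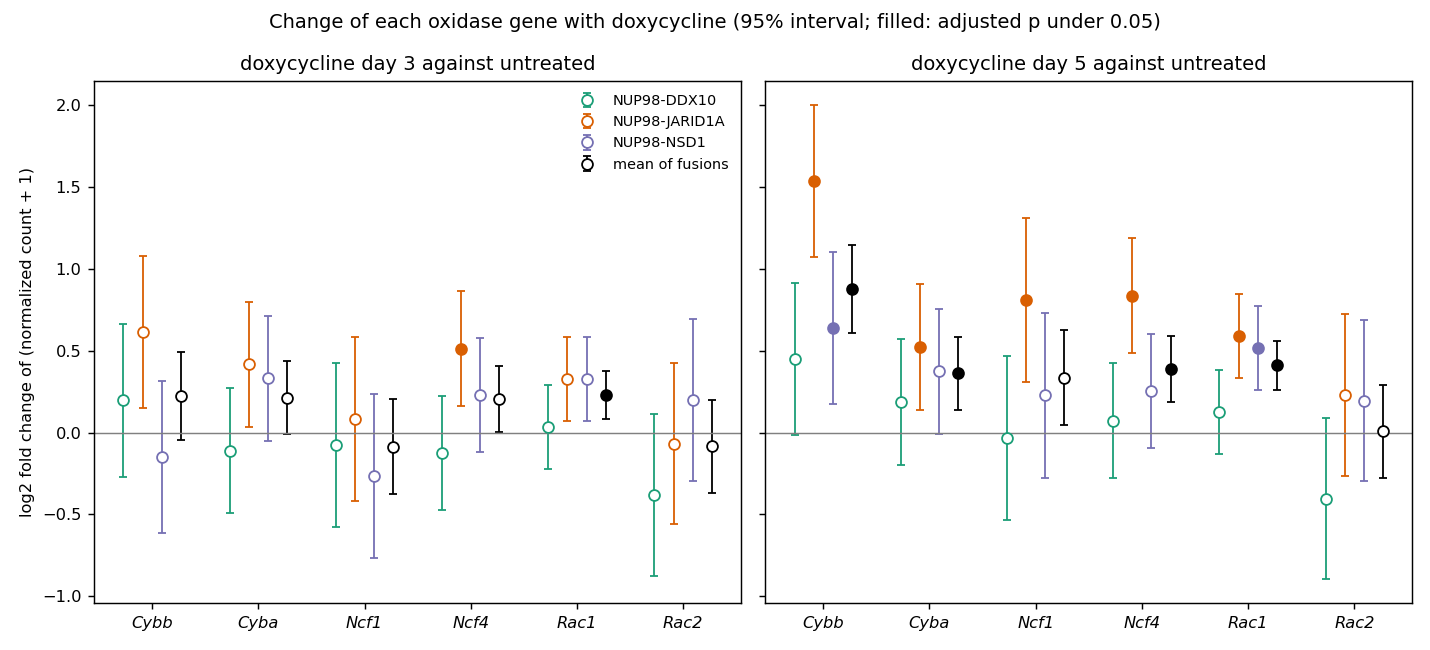
Log2 fold change of each oxidase gene against the untreated libraries of the same fusion (y axis) at day 3 (left) and day 5 (right) of doxycycline, by fusion and for the mean of the fusions; bars are 95% intervals and filled points passed an adjusted p of 0.05. At day 5 the NUP98-JARID1A points are filled for 5 of 6 genes and the NUP98-DDX10 points for 0 of 6.

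Cybb (Entrez 13058, chrX:9435252-9487766 on the minus strand of GRCm38, 13 merged exons) encodes gp91phox, the subunit that carries the heme and flavin electron path. The 250 bases before its RefSeq start, and those of Cyba and Ncf1, are shown because a promoter sequence was at hand for these 3 genes only. They are written 5′ to 3′ in the direction of transcription from RefSeq on GRCm38.p6, which held a promoter for 3 of the 6 genes. Capitals mark matches, on either strand, to an interferon-type element with the letters GAAANNGAAA, and to the CCAAT box. The letters GAGGAA, a core motif of the factor PU.1, were searched for on both strands too. No match to 1 motif overlapped a match to another. The Cybb start used by RefSeq lies inside the span of the annotated gene, which holds a transcript that begins further upstream.
Cybb, chrX:9469325-9469574, minus strand: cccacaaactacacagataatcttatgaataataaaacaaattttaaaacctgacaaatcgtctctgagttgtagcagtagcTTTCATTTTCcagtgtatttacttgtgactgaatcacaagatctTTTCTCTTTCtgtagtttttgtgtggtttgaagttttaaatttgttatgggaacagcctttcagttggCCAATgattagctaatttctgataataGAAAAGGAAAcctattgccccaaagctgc
Cyba, chr8:122432941-122433190, minus strand: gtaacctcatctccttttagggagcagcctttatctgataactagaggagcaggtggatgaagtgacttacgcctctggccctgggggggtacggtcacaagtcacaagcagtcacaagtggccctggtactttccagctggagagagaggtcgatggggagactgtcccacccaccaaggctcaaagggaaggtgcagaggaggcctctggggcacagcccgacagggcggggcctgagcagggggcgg
Ncf1, chr5:134229626-134229875, minus strand: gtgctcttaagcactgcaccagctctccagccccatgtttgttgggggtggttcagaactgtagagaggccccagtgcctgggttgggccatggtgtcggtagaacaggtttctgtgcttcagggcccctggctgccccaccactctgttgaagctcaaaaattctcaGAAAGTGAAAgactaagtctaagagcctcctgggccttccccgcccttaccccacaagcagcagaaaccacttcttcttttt

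The Cybb window held 3 interferon-type matches, the nearest of them 20 to 29 bases before the start, and 1 CCAAT box 52 to 56 bases before it. Ncf1 held 1 interferon-type match, 73 to 82 bases before its start, and Cyba held none of the motifs. Windows of the same length with an interferon-type match made up 2.98% of 32851 mouse promoters, and 33.8% held CCAAT. The PU.1 letters were in none of the 3 windows and in 23.3% of all promoters. Base composition differed as well: the Cybb window was 34% G and C, that of Ncf1 54.4% and that of Cyba 60%. These are matches of letters in windows, not measured sites, and their bearing on the responses of the genes was not tested.

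Cybb rose in steps and furthest of the 6 genes in NUP98-JARID1A, where it also started lowest. Its normalized counts there were 10521, 12545, 9783 and 8965 in the untreated libraries, 15068, 17656 and 15027 at day 3 and 31821, 29111 and 29392 at day 5. The 3 sets of libraries did not overlap, and each was higher than the one before. The log2 fold change was 0.61 ± 0.23 (limma adjusted p = 0.0662) at day 3 and 1.54 ± 0.23 (limma adjusted p = 4.24e-06) at day 5, a 2.9-fold rise. The day 3 value passed without any 1 of the controls (limma adjusted p from 2.16e-05 to 0.0394), and in edgeR and DESeq2. From day 3 to day 5 alone Cybb rose by 0.92 ± 0.24 (limma adjusted p = 0.00783).

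In NUP98-NSD1 Cybb was higher at day 5 than untreated or at day 3, by calls that single libraries could end. The untreated libraries held 22031, 21542, 23353 and 26748 normalized counts, the day 3 libraries 22503, 20719.8 and 20016 and the day 5 libraries 33034, 39342 and 36787. Day 3 overlapped the untreated range and all 3 day 5 libraries lay above both. The changes were -0.15 ± 0.23 (limma adjusted p = 0.766) at day 3, 0.64 ± 0.23 (limma adjusted p = 0.0389) at day 5 and 0.79 ± 0.24 (limma adjusted p = 0.0353) from day 3 to day 5. The day 5 call was lost on leaving out any 1 of its day 5 libraries or of the untreated libraries other than replicate 3 (6 libraries, limma adjusted p from 0.0516 to 0.131). The call from day 3 to day 5 was lost without any 1 of 5 of the 6 doxycycline libraries of this fusion, all but day 5 replicate 1 (limma adjusted p from 0.0727 to 0.142). In NUP98-DDX10 the untreated libraries held 18500.1, 18569, 18819 and 20283, the day 3 libraries 22539, 21274 and 21654 and the day 5 libraries 25533, 25990.1 and 26372. Those 3 sets did not overlap either, yet the log2 fold change at day 5, 0.45 ± 0.23 (limma adjusted p = 0.19), missed the threshold with the spread shared by all 10 groups. It passed without control replicate 3, at an unchanged 0.45 (limma adjusted p = 0.000942). The day 5 rise was larger in NUP98-JARID1A than in NUP98-DDX10 by 1.09 ± 0.32 (limma adjusted p = 0.0153). Against NUP98-NSD1 the same difference, NSD1 minus JARID1A, was -0.90 ± 0.32 (limma adjusted p = 0.0683) with a 95% interval of -1.56 to -0.24. That difference passed without any 1 of the controls (limma adjusted p from 2.13e-05 to 0.0405), with edgeR (adjusted p = 0.0424) and with DESeq2 (adjusted p = 0.0264).

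The controls spread widely for Cybb: 72188, 70760.2 and 22040.5 normalized counts, with replicate 3 inside the range of the fusion libraries. By group mean the order ran from the controls (54996 ± 28549, SD, n = 3) over NUP98-NSD1 day 5 (36388 ± 3173), NUP98-JARID1A day 5 (30108 ± 1490.2) and NUP98-DDX10 day 5 (25965 ± 420.0) down to NUP98-JARID1A day 3 (15917 ± 1506) and NUP98-JARID1A untreated (10453 ± 1533, SD, n = 4). The controls overlapped the next group. So did neighbours in the middle of the order, from NUP98-DDX10 day 5 to NUP98-DDX10 untreated. No overlap separated NUP98-NSD1 day 5 from NUP98-JARID1A day 5, nor that group from NUP98-DDX10 day 5. The lowest 3 groups were also separate from each other.

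**Figure D2:**
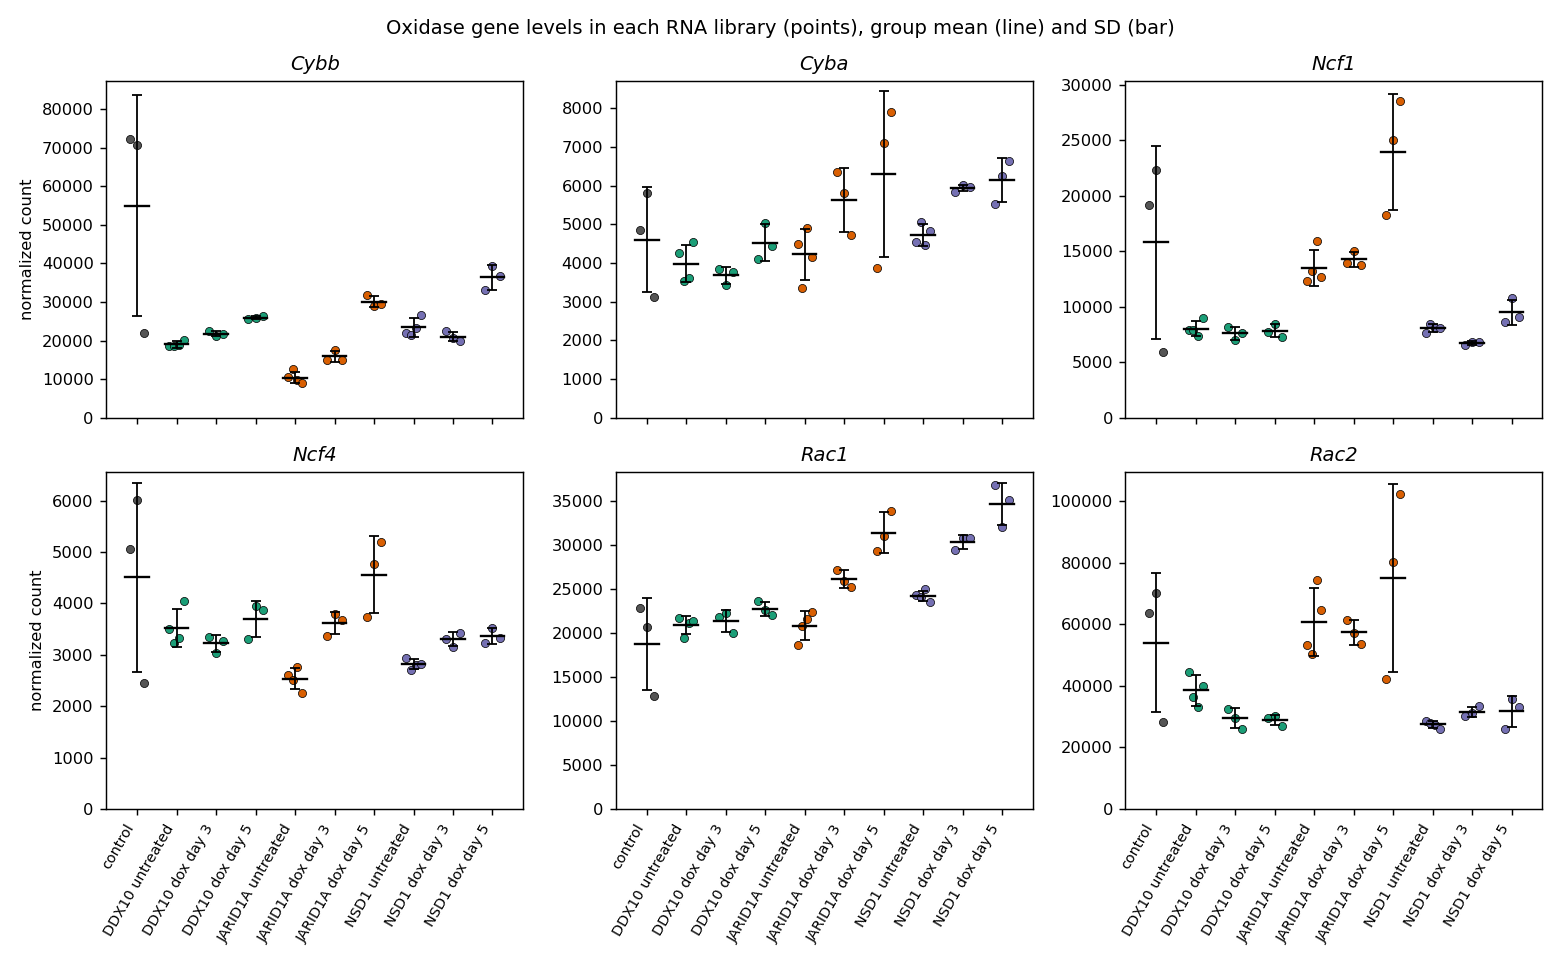
Normalized counts (y axis, from 0) of the 6 oxidase genes in each of the 33 RNA libraries (points) by group (x axis), with the group mean (line) and SD (bar). At day 5 all Cybb points lie above the untreated points of their fusion, Ncf1 and Rac2 stand high in the NUP98-JARID1A groups, and control replicate 3 is the lowest control for each gene.

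Cyba (Entrez 13057, chr8:122424771-122432940, minus strand, 6 merged exons) encodes p22phox, which stabilizes gp91phox and is the docking site of p47phox. It moved less than its partner. Its normalized counts in NUP98-JARID1A were 4495, 3359, 4911 and 4147 untreated, 6366, 5809 and 4732 at day 3 and 3866, 7110.2 and 7913 at day 5, with the first day 5 library inside the untreated range and the other 2 above it. The day 5 change was 0.52 ± 0.19 (limma adjusted p = 0.0257), and 0.84 (limma adjusted p = 0.00024) without that library. It was lost without untreated replicate 1 (0.42 (limma adjusted p = 0.0923)), without day 5 replicate 2 (0.40 (limma adjusted p = 0.143)) and without day 5 replicate 3 (0.32 (limma adjusted p = 0.222)).

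In NUP98-NSD1 Cyba counted 4556, 5063, 4459 and 4823 untreated, 5848, 6023 and 5955 at day 3 and 5526, 6238 and 6649.9 at day 5. All 6 doxycycline libraries were above all untreated ones, and the changes were 0.33 ± 0.19 (limma adjusted p = 0.299) and 0.37 ± 0.19 (limma adjusted p = 0.15). In NUP98-DDX10 the untreated libraries (4250.3, 3549, 3607 and 4541) overlapped those of day 3 (3849, 3432 and 3756) and of day 5 (4108, 5046 and 4436). The mean over fusions was 0.21 ± 0.11 (limma adjusted p = 0.18) at day 3 and 0.36 ± 0.11 (limma adjusted p = 0.00718) at day 5, and the effect was not found to differ between fusions (F-test at day 5, limma adjusted p = 0.598). Group means ran from 3679 in NUP98-DDX10 day 3 to 6296 in NUP98-JARID1A day 5, and each of the 10 groups overlapped its neighbour in that order.

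The log2 ratio of Cybb to Cyba within a library does not depend on the size factor. Over the 3 fusions it rose at day 5 by 0.51 (exact permutation test, two-sided, p = 0.00077, adjusted p = 0.00206), by 1.01 in NUP98-JARID1A, 0.26 in NUP98-NSD1 and 0.26 in NUP98-DDX10. In each fusion the day 5 libraries overlapped the untreated ones. The day 5 ratios in NUP98-JARID1A were 1.89, 2.03 and, in replicate 1, 3.04, against 0.99 to 1.90 untreated. They ran from 2.468 to 2.657 against 2.089 to 2.471 in NUP98-NSD1, and from 2.36 to 2.64 against 2.12 to 2.39 in NUP98-DDX10. At day 3 the mean difference was 0.0074 (exact permutation test, two-sided, p = 0.953, adjusted p = 0.953), made up of 0.20 for NUP98-JARID1A, 0.31 for NUP98-DDX10 and -0.48 in NUP98-NSD1. In NUP98-NSD1 at day 3 all 3 libraries (1.75 to 1.94) were below all 4 untreated ones (2.09 to 2.47). In NUP98-DDX10 at day 3 all were above (2.53 to 2.63 against 2.12 to 2.39). The 6 ratio tests, 3 ratios at 2 days, were adjusted together, and each enumerated the 42875 ways of exchanging labels within the fusions.

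The cytosolic subunit genes Ncf1 and Ncf4 followed different courses. Ncf1 (Entrez 17969, chr5:134220053-134229628, minus strand, 12 merged exons) encodes p47phox, whose phosphorylation releases it to dock on the core. It was highest in NUP98-JARID1A, with 12310.3, 13202, 15894 and 12661 normalized counts untreated, 13974, 15062 and 13754 at day 3 and 18262, 25043 and 28542 at day 5. The first 2 sets overlapped and all 3 day 5 libraries lay above both. The change was 0.084 ± 0.24 (limma adjusted p = 0.876) at day 3 and 0.81 ± 0.24 (limma adjusted p = 0.00921) at day 5, and without replicate 3 of day 5 it was 0.67 (limma adjusted p = 0.0631).

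In NUP98-NSD1 the libraries of Ncf1 moved in both directions: 7617, 8496, 8114 and 8084 untreated, 6536, 6826 and 6812 at day 3, all below the untreated libraries, and 8591, 10809 and 9077 at day 5, all above them. Neither change against untreated passed, with -0.26 ± 0.24 (limma adjusted p = 0.578) at day 3 and 0.23 ± 0.24 (limma adjusted p = 0.562) at day 5. In NUP98-DDX10 the 3 sets overlapped: 7903, 7885, 7368 and 9026 untreated, 8224, 7048 and 7613 at day 3 and 7765, 8492 and 7313 at day 5. Over the fusions Ncf1 rose from day 3 to day 5 by 0.42 ± 0.15 (limma adjusted p = 0.0386), 1 of 2 genes called in that comparison with Cybb (0.65 ± 0.14 (limma adjusted p = 0.0009)), where 14.3% of all genes rose. The Ncf1 call was lost on leaving out any 1 of 12 of the 18 doxycycline libraries (limma adjusted p from 0.0531 to 0.081), and with quantile normalization (0.26 (limma adjusted p = 0.134)). Without control replicate 3 the genes called from day 3 to day 5 were 4, with Ncf4 and Rac1 added, and without NUP98-JARID1A day 5 replicate 1 they were 3, with Cyba added. Against untreated its mean day 5 change was 0.33 ± 0.14 (limma adjusted p = 0.0543). With edgeR's quasi-likelihood test on recovered reads the adjusted p was 0.0423, with DESeq2 0.0279, and without control replicate 3 in limma 0.000105. It also passed without any 1 of 4 other libraries, among them the other 2 controls and NUP98-JARID1A day 5 replicate 1.

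The summed mature neutrophil markers (12 genes) stood higher at day 5 along with Ncf1 in NUP98-JARID1A and NUP98-NSD1. At day 3 the marker sums and Ncf1 parted in both fusions. In NUP98-JARID1A they came to 255224, 237230, 259216 and 205537 normalized counts untreated, to 272234, 445072 and 306993 at day 3, above all untreated libraries while Ncf1 overlapped them, and to 631335, 934027 and 1086860 at day 5, where replicates 1 to 3 stood in the same order as for Ncf1. In NUP98-NSD1 they came to 94085, 43067, 70240.2 and 48294 untreated, to 127809, 82192 and 191512 at day 3, when Ncf1 was below all untreated libraries and the marker sums of 2 libraries were above them, and to 125057, 290930 and 186858 at day 5, in the replicate order of Ncf1. NUP98-DDX10 held 51862, 67864, 66602 and 68622 untreated, 50015, 29888 and 56847 at day 3 and 55505, 92530.3 and 76518 at day 5, not in the replicate order of Ncf1. The part of granulocyte content in the Ncf1 result was not tested.

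Ncf4 (Entrez 17972, chr15:78244164-78262582, plus strand, 10 merged exons) encodes p40phox. In NUP98-JARID1A the untreated libraries held 2604, 2519, 2758 and 2264 normalized counts, those of day 3 3374, 3793 and 3673 and those of day 5 3728, 4767 and 5191. All 6 doxycycline libraries lay above all untreated ones. Ncf4 rose by 0.51 ± 0.17 (limma adjusted p = 0.0394) at day 3, the 1 oxidase gene called there (background 8.11%), and by 0.84 ± 0.17 (limma adjusted p = 0.000266) at day 5. The day 3 call was lost on leaving out any 1 of its day 3 libraries or of the untreated libraries other than replicate 2 (6 libraries, limma adjusted p from 0.0635 to 0.129), and without control replicate 3 the count at day 3 was 3 of 6, with Cybb and Rac1 added. In NUP98-NSD1 it counted 2941, 2703, 2807 and 2816 untreated, 3311, 3161 and 3433 at day 3 and 3223, 3531 and 3334 at day 5. Here too no doxycycline library overlapped the untreated ones, but the change was small, 0.25 ± 0.17 (limma adjusted p = 0.306) at day 5, and passed without control replicate 3 (limma adjusted p = 0.0429). In NUP98-DDX10 the sets overlapped throughout, from 3508, 3225, 3323 and 4044 untreated to 3357, 3036 and 3272 at day 3 and 3301, 3943 and 3870.2 at day 5. The day 5 rise was larger in NUP98-JARID1A than in NUP98-DDX10 by 0.76 ± 0.24 (limma adjusted p = 0.0225), a call lost without NUP98-DDX10 day 5 replicate 1 or NUP98-JARID1A day 5 replicates 2 or 3 (limma adjusted p from 0.0527 to 0.0784).

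The log2 ratio of Ncf4 to Ncf1 rose at day 3 by 0.29 (exact permutation test, two-sided, p = 0.00135, adjusted p = 0.00206), with 0.49 in NUP98-NSD1, 0.43 in NUP98-JARID1A and -0.05 in NUP98-DDX10. All day 3 libraries lay above all untreated ones in the first 2 of these fusions. At day 5 the ratio stood near its untreated value, with a mean difference of 0.054 (exact permutation test, two-sided, p = 0.265, adjusted p = 0.319).

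**Figure D3:**
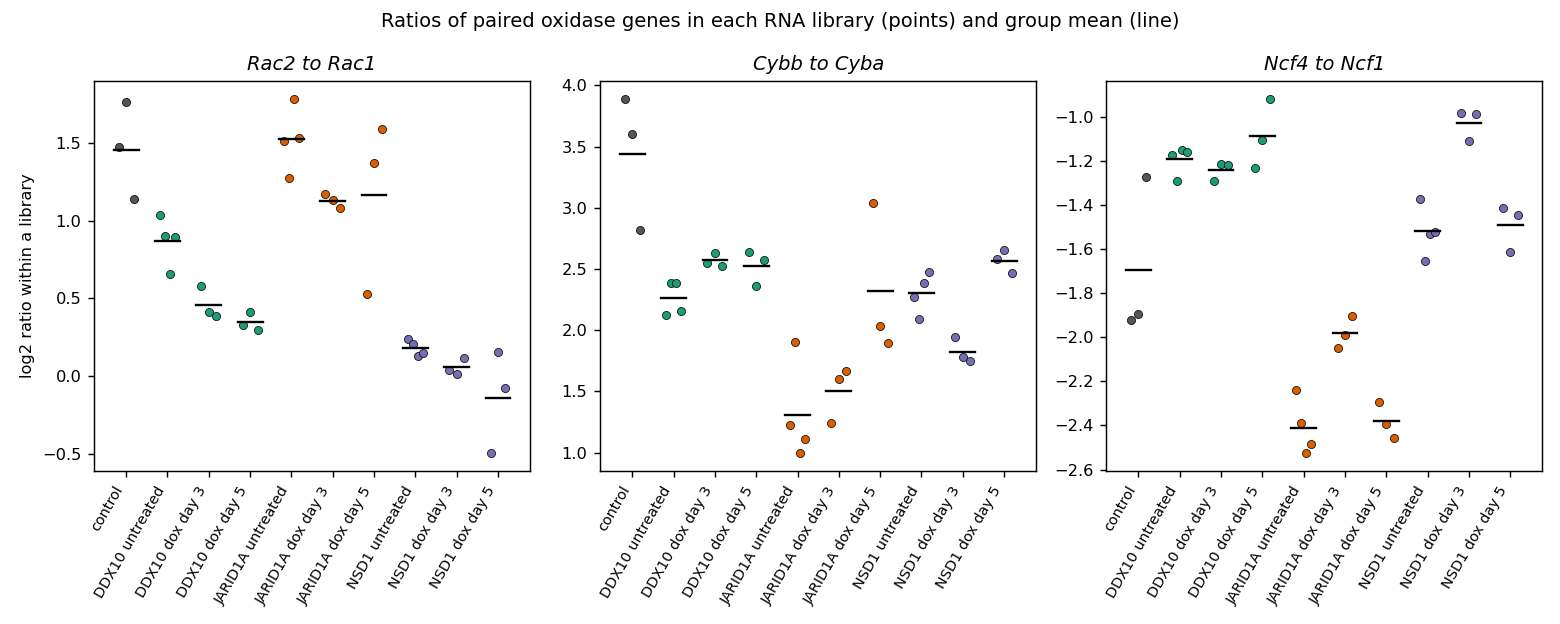
Log2 ratio of the normalized counts of paired oxidase genes within each RNA library (y axis, points) by group (x axis), with the group mean (line). The Rac2 to Rac1 ratio is lower at day 3 than untreated in each fusion without overlap, and the Ncf4 to Ncf1 ratio is higher at day 3 in NUP98-JARID1A and NUP98-NSD1 but not in NUP98-DDX10.

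The Rac genes parted. Rac1 (Entrez 19353, chr5:143505481-143528031, minus strand, 7 merged exons) encodes the Rac protein of most tissues, which serves the oxidase in macrophages and also drives actin remodelling. It rose from day 3 on in the mean of the fusions. In NUP98-NSD1 it counted 24362, 24103, 24984 and 23590.4 untreated, 29435, 30859 and 30848 at day 3 and 36868, 32105 and 35099.9 at day 5. In NUP98-JARID1A the values were 18657, 20859, 21588 and 22402, 27210.3, 25993 and 25290 and 29306, 31052 and 33942. In both fusions the 3 sets did not overlap and went up in turn. The changes at day 5 were 0.51 ± 0.12 (limma adjusted p = 0.00283) and 0.59 ± 0.12 (limma adjusted p = 0.000396). After quantile normalization the NUP98-JARID1A value was 0.24 (limma adjusted p = 0.0678) and did not pass. In NUP98-DDX10 the values were 21715, 19418, 21107 and 21445 untreated, 21797, 22353 and 20005 at day 3 and 23657, 22668 and 22059.6 at day 5, with day 5 above untreated in 3 of 3 libraries and a change of 0.12 ± 0.12 (limma adjusted p = 0.55). Over the fusions Rac1 rose by 0.23 ± 0.072 (limma adjusted p = 0.0265) at day 3 and 0.41 ± 0.072 (limma adjusted p = 3.7e-05) at day 5. Monocyte and macrophage markers moved with it in part: their sum of 15 genes in NUP98-JARID1A was 53803, 68703, 59094 and 62504 untreated, 89851, 88915 and 85594 at day 3 and 125210, 121380 and 142880 at day 5. There the sum went up in turn without overlap, as Rac1 did. In NUP98-NSD1 it was 104814, 93678, 105544 and 105381 untreated and 97311, 98363 and 88758 at day 3, overlapping where Rac1 did not, and 116607, 118164 and 121051 at day 5, while in NUP98-DDX10 it was 116109, 95901, 95152 and 110887 and 97639.9, 97150.2 and 93125. Their part in the Rac1 result was not tested.

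Rac2 (Entrez 19354, chr15:78559169-78572783, minus strand, 7 merged exons) encodes the Rac protein of blood cells that serves the oxidase in neutrophils. Its level differed between the untreated fusions, and no change with doxycycline passed. In NUP98-JARID1A it counted 53329.6, 50442, 74489 and 64806 untreated, 61386, 57124 and 53512 at day 3 and 42366, 80297 and 102442 at day 5. Replicate 1 of day 5 lay below all untreated libraries and replicate 3 above them all. The change at day 5 was 0.23 ± 0.24 (limma adjusted p = 0.475), and 0.60 (limma adjusted p = 0.0374) without replicate 1. That library was also the lowest of its group for Cyba, Ncf1, Ncf4 and Rac1 and the highest for Cybb, and its mature neutrophil marker sum was the lowest of the 3.

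In NUP98-DDX10 Rac2 counted 44572, 36333, 33222 and 39902 untreated, 32594, 29734 and 26163 at day 3 and 29689, 30212 and 27037 at day 5. All 6 doxycycline libraries were below all 4 untreated ones, though the changes of -0.38 ± 0.24 (limma adjusted p = 0.561) and -0.40 ± 0.24 (limma adjusted p = 0.275) did not pass. Libraries below all untreated ones at day 5 were found for 19.4% of all genes. In NUP98-NSD1 the values were 28706, 27857, 27356 and 26139 untreated, 30277, 31076 and 33446 at day 3, all above untreated, and 26102, 35787 and 33307 at day 5, which overlapped. Over the fusions Rac2 changed by 0.0066 ± 0.14 (limma adjusted p = 0.977) at day 5, with a 95% interval of -0.28 to 0.29. This value turned with the scaling: after quantile normalization it was -0.28 (limma adjusted p = 0.0119).

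The Rac2 to Rac1 ratio, which is free of the scaling by library, fell by 0.31 on the log2 scale at day 3 (mean difference -0.31 (exact permutation test, two-sided, p = 0.000233, adjusted p = 0.0014)) and at day 5 the mean difference was -0.40 (exact permutation test, two-sided, p = 0.00138, adjusted p = 0.00206). At day 3 it was -0.40 for NUP98-JARID1A, -0.41 for NUP98-DDX10 and -0.13 for NUP98-NSD1, and in each fusion the day 3 libraries lay below all untreated ones. At day 5 the differences were -0.36, -0.53 and -0.32, and the libraries overlapped the untreated ones in NUP98-JARID1A and NUP98-NSD1. The mean log2 ratio ran from -0.14 ± 0.33 in NUP98-NSD1 day 5 (SD, n = 3) to 1.53 ± 0.21 in untreated NUP98-JARID1A (SD, n = 4), and the controls stood at 1.46 ± 0.31 (SD, n = 3). In NUP98-NSD1 and NUP98-JARID1A the day 5 libraries differed from the untreated ones in Rac1, and in NUP98-DDX10 they stood apart in the counts of both genes, higher in Rac1 and lower in Rac2.

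The untreated leukemias differed in oxidase genes about as often as in genes at large. The F-test between the untreated fusions passed for Cybb (limma adjusted p = 6.71e-05), Rac2 (0.000324), Ncf1 (0.00608) and Ncf4 (0.0279), 4 of 6 genes against a background of 69.8%. The Ncf4 call was lost without untreated NUP98-DDX10 replicate 3 or its library titled day 3, or untreated NUP98-JARID1A replicate 3 (limma adjusted p from 0.0538 to 0.104). Untreated NUP98-JARID1A had the lowest Cybb of the 3, -0.88 ± 0.21 (limma adjusted p = 0.00136) against NUP98-DDX10, and the highest Ncf1 and Rac2, 0.75 ± 0.23 (limma adjusted p = 0.0094) and 0.65 ± 0.22 (limma adjusted p = 0.0202). The Rac2 call was lost without untreated replicate 2 of NUP98-DDX10 (limma adjusted p = 0.0615) or of NUP98-JARID1A (limma adjusted p = 0.0754). Against NUP98-JARID1A, NUP98-NSD1 had 1.17 ± 0.21 (limma adjusted p = 3.36e-05) for Cybb, -0.74 ± 0.23 (limma adjusted p = 0.00685) for Ncf1 and -1.13 ± 0.22 (limma adjusted p = 0.000105) for Rac2. Between NUP98-NSD1 and NUP98-DDX10 none of the 6 passed, where 41.9% of all genes did; Rac2 alone had an unadjusted limma p under 0.05 (0.0408), edgeR called 0 and DESeq2 called Rac2. In that comparison 4 of 6 passed without control replicate 3, Cybb (0.29 (limma adjusted p = 0.00674)), Ncf4 (-0.32 (limma adjusted p = 0.00451)), Rac1 (0.21 (limma adjusted p = 0.0124)) and Rac2 (-0.48 (limma adjusted p = 0.0199)), and the same 4 in a fit without the controls. Without NUP98-JARID1A day 5 replicate 1 Rac2 passed (limma adjusted p = 0.041). Cyba and Rac1 did not pass between the untreated leukemias, with limma F-test adjusted p of 0.387 and 0.144, though Rac1 passed without control replicate 3 (limma adjusted p = 0.00784). Mature neutrophil markers were higher in untreated NUP98-JARID1A (255224, 237230, 259216 and 205537) than in untreated NUP98-NSD1 (94085, 43067, 70240.2 and 48294), and monocyte or macrophage markers lower (53803, 68703, 59094 and 62504 against 104814, 93678, 105544 and 105381). The part of these cells in the differences was not tested.

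Against all 3 controls Cybb was lower in each untreated leukemia, and at day 5 the difference was smaller in each. In the order NUP98-DDX10, NUP98-JARID1A, NUP98-NSD1, the untreated change was -1.34 ± 0.23 (limma adjusted p = 8.42e-06), -2.22 ± 0.23 (limma adjusted p = 1.76e-09) and -1.05 ± 0.23 (limma adjusted p = 0.000222). Without control replicate 3 these were -1.91 (limma adjusted p = 1.52e-14), -2.78 (limma adjusted p = 4.4e-18) and -1.61 (limma adjusted p = 3.85e-13). At day 5 they were -0.90 ± 0.24 (limma adjusted p = 0.00213), -0.68 ± 0.24 (limma adjusted p = 0.0152) and -0.41 ± 0.24 (limma adjusted p = 0.146), and without that library -1.46 (limma adjusted p = 1.39e-11), -1.25 (limma adjusted p = 3.7e-10) and -0.98 (limma adjusted p = 2.98e-08). The NUP98-JARID1A day 5 value was lost without control replicate 1 (-0.39 (limma adjusted p = 0.16)) or 2 (-0.41 (limma adjusted p = 0.15)). As the scaling moved the median of all genes by more than 0.1 in these comparisons (in NUP98-DDX10 untreated from -0.11 to 0.18 after quantile normalization), the Cybb values relative to that median were -1.24, -2.11 and -0.99 untreated, and -1.03, -2.02 and -0.83 after quantile normalization. The untreated and day 5 comparisons share the 3 controls. Mature neutrophil marker sums were 276342 to 3466130 in the controls and 43067 to 259216 in the untreated leukemias. Monocyte or macrophage sums were 31785 to 61329 in the controls and 53803 to 116109 in the untreated leukemias. The part of cell content in the difference of any oxidase gene from the controls was not tested.

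Of the other genes, Ncf1 was lower than in the controls in untreated NUP98-DDX10 (-0.77 ± 0.24 (limma adjusted p = 0.00712)) and NUP98-NSD1 (-0.76 ± 0.24 (limma adjusted p = 0.00841)). Without control replicate 1 these were -0.52 (limma adjusted p = 0.0833) and -0.51 (limma adjusted p = 0.0936), and without control replicate 2 -0.41 (limma adjusted p = 0.136) and -0.40 (limma adjusted p = 0.152), so both calls were lost. Ncf4 was lower in NUP98-JARID1A (-0.74 ± 0.17 (limma adjusted p = 0.000415)) and NUP98-NSD1 (-0.58 ± 0.17 (limma adjusted p = 0.00412)), the second lost without control replicate 2 (-0.32 (limma adjusted p = 0.0937)). Rac2 was lower in NUP98-NSD1 (-0.87 ± 0.24 (limma adjusted p = 0.00257)). Rac1 was higher in NUP98-NSD1 (0.41 ± 0.12 (limma adjusted p = 0.00534)), a call lost without control replicate 3 (0.16 (limma adjusted p = 0.106)). The genes lower than in the controls numbered 2 of 6 for NUP98-JARID1A, 2 for NUP98-DDX10 and 4 for NUP98-NSD1, where 38.0%, 37.9% and 34.9% of all genes were lower. Without control replicate 3 NUP98-DDX10 had 5 of 6 lower genes in place of 2, Ncf4 among them (-0.65 (limma adjusted p = 8.01e-06)), and NUP98-JARID1A had 3, with Ncf1 added (-0.62 (limma adjusted p = 0.000119)). Cybb, Ncf1 and Ncf4 were then lower in all 3 untreated leukemias. At day 5 Rac1 stood above the controls in all 3 fusions, at 0.32 ± 0.13 (limma adjusted p = 0.0367), 0.78 ± 0.13 (limma adjusted p = 1.08e-05) and 0.93 ± 0.13 (limma adjusted p = 1.19e-06). The first of these was lost without control replicate 3 (0.069 (limma adjusted p = 0.517)) and without any 1 of the 3 NUP98-DDX10 day 5 libraries (limma adjusted p from 0.0518 to 0.517 over all 4). Ncf1 stood above them in NUP98-JARID1A at day 5 (0.79 ± 0.26 (limma adjusted p = 0.0098)), again not without that library (0.19 (limma adjusted p = 0.224)) or without NUP98-JARID1A day 5 replicate 3 (0.65 (limma adjusted p = 0.0568)). A rise above the controls at day 5 was called for 29.1%, 30.6% and 27.3% of all genes in the 3 fusions.

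Scaled by the length of merged exons, so that genes can be set side by side, the Rac genes were the most abundant of the 6. Rac2 ranked first in 21 of 33 libraries and Rac1 in the other 12. Cyba was in the 3rd place in 27 libraries and Ncf4 in the 6th in 30. Even Ncf4 lay between the 97.1 and 99.0 percentile of the 24339 genes with a length. The place of Cybb varied most with the group: its level per kilobase was 2201 ± 323 (SD, n = 4) in untreated NUP98-JARID1A, under Ncf1 at 4553 ± 548, and 11578 ± 6010.4 (SD, n = 3) in the controls, above Ncf1 at 5323 ± 2926. In NUP98-NSD1 day 5 Cybb (7661 ± 668) and Cyba (8087 ± 749) were within 1 SD of each other, whereas in untreated NUP98-JARID1A Cyba was at 5570.2 ± 867, above Cybb by more than either SD.

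**Figure D4:**
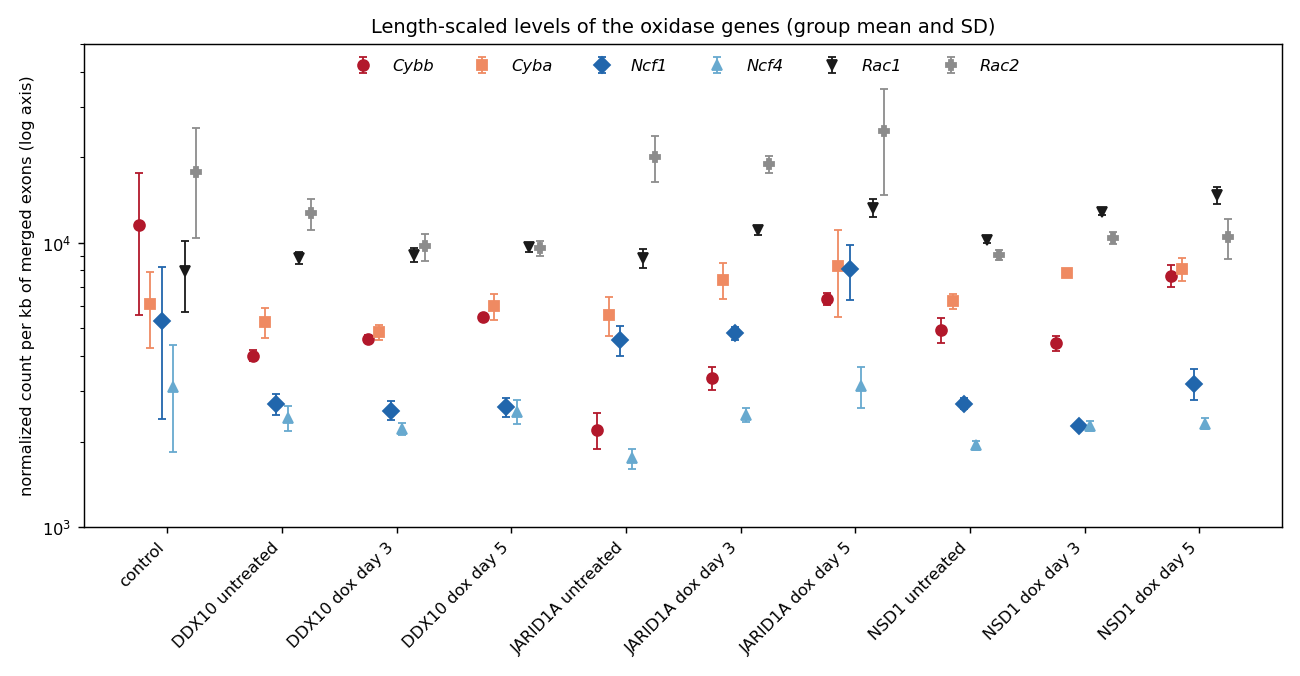
Normalized counts per kilobase of merged exons (log axis) of the 6 oxidase genes by group, as mean and SD over 3 or 4 libraries. The Rac genes lie at the top in nearly every group, and Cybb is lowest in untreated NUP98-JARID1A.

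Across the 33 libraries the 6 genes did not move as a block. On log2 values Pearson's r was 0.90 between Ncf1 and Rac2, 0.76 between Cyba and Rac1 and 0.70 between Cybb and Ncf4, and it was 0.32 between the partners Cybb and Cyba, 0.10 between Rac1 and Rac2 and -0.082 between Cybb and Rac2. These r values are descriptions over libraries that share groups and size factors. The genes most like each member by the same measure were Osbpl9 (r = 0.91) and Arpc5 (r = 0.91) for Cybb, Fxyd5 (r = 0.89) and Snx20 (r = 0.82) for Cyba, and Dock5 (r = 0.96) and Cd177 (r = 0.95) for Ncf1. For Ncf4 they were Ppm1m (r = 0.89) and Cpne2 (r = 0.88), for Rac1 Tmem106a (r = 0.88) and Cd68 (r = 0.88), and for Rac2 Fam222b (r = 0.96) and Cnn2 (r = 0.96).

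The genes around the oxidase were counted for day 5 in the mean of the fusions, where 22.6% of all genes rose and 23.4% fell. Of the receptors, kinases and lipases that trigger the enzyme, 21 rose and 2 fell of 37 tested, with a median log2 fold change of 0.33. Fcgr1, the high-affinity IgG receptor, rose by 2.49 ± 0.21 (limma adjusted p = 2.08e-10), with 132 ± 40.6 normalized counts in untreated NUP98-NSD1 (SD, n = 4) against 1337 ± 659.9 after 5 days (SD, n = 3). The Src family kinase gene Fgr rose by 2.12 ± 0.18 (limma adjusted p = 2.16e-10) and its relative Lyn by 0.76 ± 0.051 (limma adjusted p = 2.71e-12). Tlr2, a receptor for bacterial lipoproteins, rose by 1.14 ± 0.14 (limma adjusted p = 1.02e-07). Among the Rac exchange factors, inhibitors and GTPase activators, 9 rose and 2 fell of 19 tested, with a median of 0.24. They included the exchange factor genes Dock8 (0.37 ± 0.066 (limma adjusted p = 4.41e-05)) and Tiam1 (0.50 ± 0.11 (limma adjusted p = 0.000628)). The GTPase activator genes Srgap2 (0.65 ± 0.071 (limma adjusted p = 2.54e-08)) and Racgap1 (0.39 ± 0.057 (limma adjusted p = 3.28e-06)) were also among them, so both kinds held genes that rose.

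In the wider oxidase family 4 of 13 listed genes passed the filter on low values, and 2 rose and 1 fell. The genes that rose were Rap1a (0.59 ± 0.10 (limma adjusted p = 3.49e-05)) and Rap1b (0.67 ± 0.12 (limma adjusted p = 4.51e-05)), genes of closely related small GTPases of which Rap1A copurifies with the flavocytochrome. Noxo1, the organizer of the nonphagocyte oxidases, fell (-0.61 ± 0.22 (limma adjusted p = 0.0249)). Cybc1, whose product is a chaperone of the flavocytochrome, did not pass (-0.10 ± 0.053 (limma adjusted p = 0.11)). Of the genes listed for NADPH supply, 7 rose and 4 fell of 14 tested, and the supply itself was not measured. Me2, a mitochondrial malic enzyme gene, rose (0.37 ± 0.064 (limma adjusted p = 3.42e-05)), as did Mthfd2 of the mitochondrial folate cycle (0.35 ± 0.074 (limma adjusted p = 0.000296)), which at day 3 stood higher still (0.80 ± 0.074 (limma adjusted p = 1.6e-08)). Idh2 (-0.45 ± 0.059 (limma adjusted p = 6.39e-07)) and the cytosolic folate gene Mthfd1 (-0.42 ± 0.077 (limma adjusted p = 6.96e-05)) fell. Of the genes that handle superoxide and peroxide, 10 rose and 4 fell of 25 tested. Sod1, the cytosolic superoxide dismutase, rose by 0.69 ± 0.059 (limma adjusted p = 2.41e-10) and the heme oxygenase gene Hmox1 by 1.37 ± 0.13 (limma adjusted p = 1.16e-09). Mpo, the primary granule peroxidase that turns hydrogen peroxide into hypochlorous acid, changed the other way at -1.83 ± 0.25 (limma adjusted p = 7.3e-07), and so did Prdx4 (-0.38 ± 0.067 (limma adjusted p = 3.92e-05)).

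Transcription factors that have been reported at phagocyte oxidase promoters split: 10 rose and 8 fell of 27 tested, with a median of 0.067. The 4 with the smallest adjusted p all fell. They were Hoxa10 (-2.26 ± 0.11 (limma adjusted p = 4.54e-15)) and Meis1 (-2.60 ± 0.26 (limma adjusted p = 3.74e-09)), known as self-renewal genes of blood progenitors, the ETS factor Elf1 (-0.68 ± 0.063 (limma adjusted p = 9.1e-10)) and the chromatin organizer Satb1 (-0.79 ± 0.076 (limma adjusted p = 2.43e-09)). At day 3 these were at -1.22, -1.89, -0.47 and -0.62, with limma adjusted p from 1.34e-08 to 6.02e-06. Their bearing on the oxidase genes was not tested. The marker lists in the same comparison moved as follows: of the monocyte or macrophage markers 14 rose and 1 fell of 15 tested (the list shares Fcgr1 with the receptors), of the mature neutrophil markers 10 rose and 0 fell of 12 tested, and of the granulocyte and monocyte progenitor markers 0 rose and 7 fell of 8 tested. Medians were 1.13, 1.36 and -1.69. The median of the 6 oxidase genes was 0.37. None of the 8 B cell markers passed at day 5.

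**Figure D5:**
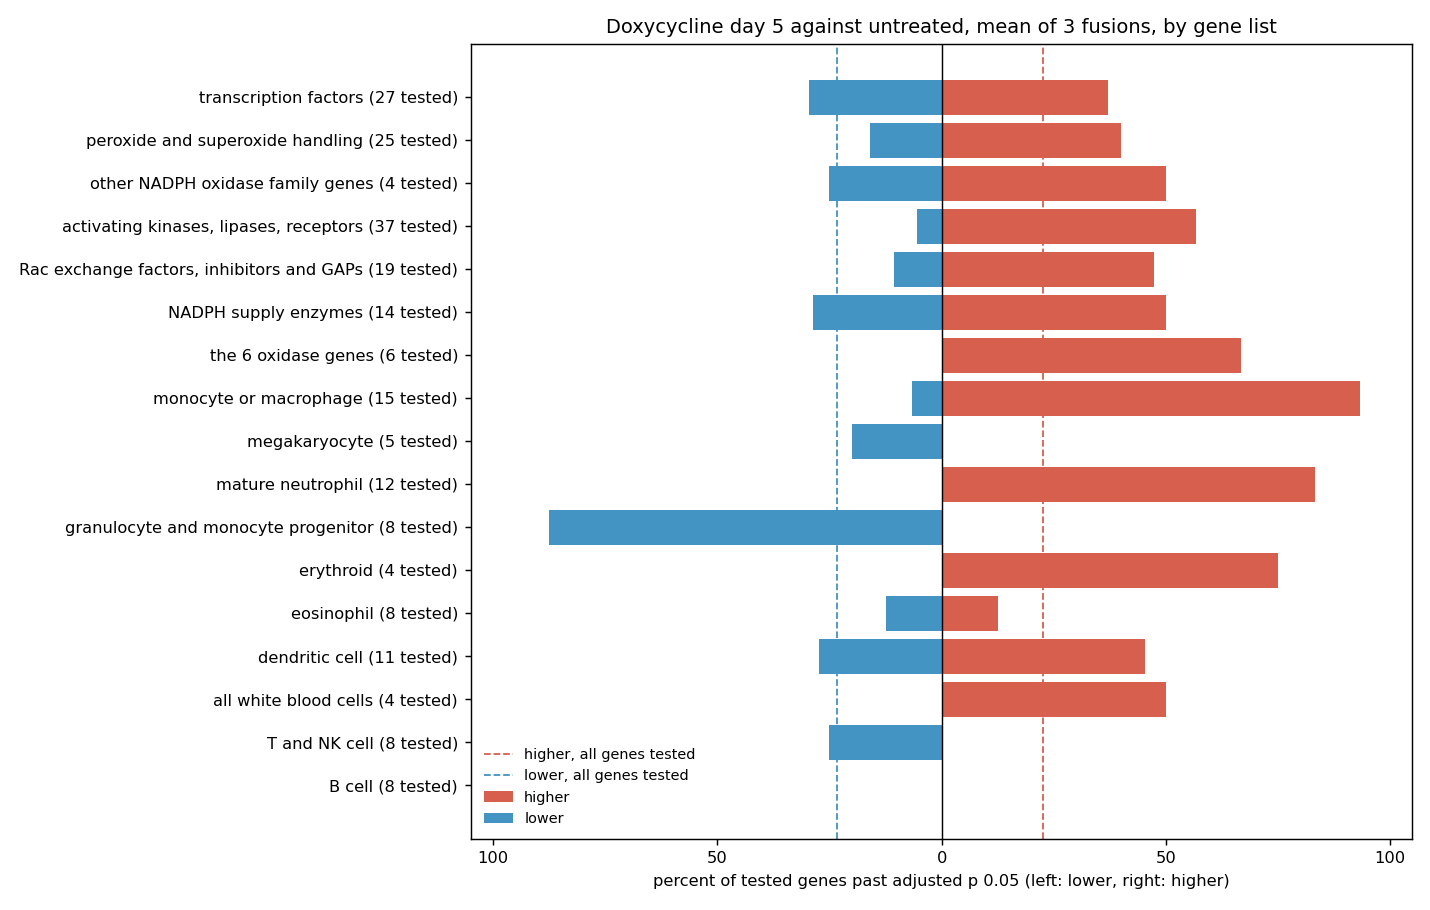
Percent of the tested genes of each list that were higher (right) or lower (left) at day 5 of doxycycline in the mean of the fusions, at an adjusted p under 0.05; dashed lines give the same over all genes tested. Bars of the oxidase genes (4 of 6 higher) and of the monocyte and neutrophil markers point right, and the progenitor markers (7 of 8) point left.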

How the data were processed

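RNA-seq of sorted mouse bone marrow cells was analysed in 33 libraries of 10 groups; 2 chromatin samples of the series were not used here. Per the submitters' processing notes, the authors used FastQC, STAR, SAMtools, featureCounts and DESeq2 for RNA and named the builds GRCm38 and mm10; versions are not given in the sources used here, and use of strand in counting is not stated. The deposited values are a signal, normalized counts of 24462 features (24454 genes and 8 constructs), that is reads over a size factor for each library. All values (100%) came out as whole reads, to within 0.01 of a read, so reads were recovered (12043487 to 28903870 in genes per library), and edgeR and DESeq2 were run on these reads as alternatives.

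Changes were tested with limma (3.58.1, R 4.3.3) on log2(value + 1), in 1 fit of the 10 group means with a trend in the variance and 27.3 degrees of freedom. Features had to reach 10 in 3 or more libraries (12682 genes and 5 constructs), with Benjamini-Hochberg adjustment over all of them and a threshold of 0.05. This scale understates changes of genes with few reads. Ratios within a library were tested by exact permutation within each fusion, in Python 3.11.15. The alternatives were edgeR 4.0.16, DESeq2 1.42.0, pseudocounts of 0.5 and 8, no filter, TMM and quantile scaling, untreated libraries titled day 5 only, fits per fusion or without controls, a replicate block, and leaving out each library. Scripts were tested on simulated data.

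Named were all 6 oxidase genes, per pathway list the up to 4 tested genes with the smallest adjusted p for day 5 in the mean of the fusions, and per member the 2 genes with the highest Pearson r over the libraries. A gene of the wider family is not reported here. Other cell type markers were summed per library. Of the T and NK cell list 8 of 9 markers were matched; the summed levels of the T and NK cell, eosinophil and megakaryocyte markers were highest in the controls (up to 5752, 2267 and 512 normalized counts). Members and lists were chosen with earlier results of these data known. As the labels do not number animals, p-values here measure only the spread between libraries, which may be technical. No 2 libraries of the same group held the same reads (chi-square per degree of freedom 6.34 or more). Libraries of different groups were not compared in this way. Positions and lengths came from the GRCm38 annotation, which gave a symbol to 24376 genes, and promoter sequences from RefSeq on GRCm38.p6.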

Additional observations from a re-analysis of the deposited data

Results flagged for a closer look

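The effect of doxycycline at day 5 differed between the 3 fusions for 2 of the oxidase genes, Cybb (F-test, limma adjusted p = 0.0245) and Ncf4 (limma adjusted p = 0.0418); the day 5 change of Cybb was 1.54 in NUP98-JARID1A, 0.64 in NUP98-NSD1 and 0.45 in NUP98-DDX10. Among the receptors and kinases the day 5 effect differed for Lyn (limma adjusted p = 0.000128), Fcgr1 (0.00456), Fgr (0.015) and Tlr2 (0.0144), and the day 3 effect for Lyn (0.00557). Lyn stood at 17121 ± 1007 normalized counts in NUP98-JARID1A day 5 (SD, n = 3), 14071 ± 988 in NUP98-NSD1 and 11170 ± 490.4 in NUP98-DDX10. Among the Rac regulators it differed for Srgap2 (limma adjusted p = 0.00337), Tiam1 (0.0288) and Dock8 (0.0455), and in the wider oxidase family for Noxo1 (0.0438), all at day 5. Cybc1 of the same family differed at day 3 (limma adjusted p = 0.0269). Of the enzymes around NADPH and peroxide, Hmox1 differed at day 3 (limma adjusted p = 0.00395) and day 5 (0.000266), Mthfd2 at day 3 (0.000432), and Mthfd1 (0.00313), Idh2 (0.0186) and Mpo (0.0331) at day 5. Hmox1 reached 13409.5 ± 2907 in NUP98-JARID1A day 5 (SD, n = 3) and 4517 ± 367 in NUP98-DDX10. Of the transcription factors, Elf1 differed at day 3 (limma adjusted p = 0.014) and day 5 (0.017), and Hoxa10 (0.00388) and Satb1 (0.0151) at day 5. Of the genes most like an oxidase gene over the libraries, Tmem106a differed at day 3 (limma adjusted p = 0.0148) and day 5 (0.000163), and Cpne2 (0.00782) and Cd68 (0.0121) at day 5.

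In 3 groups of 4 untreated libraries a single library stood far from the other 3, by the gap to its neighbour against the range of the group. It held 12998 normalized counts of Dock8 in NUP98-DDX10, 3584 of Satb1 in NUP98-JARID1A and 5284 of Cnn2 in NUP98-NSD1. Chance alone marks about 1 in 20 such groups. All oxidase genes and all other named genes were tested in the untreated group of each fusion, so marks by chance are to be expected. These 3 are not shown to be unusual. None of the 18 groups tested for the oxidase genes themselves was marked (groups of 3 libraries cannot be tested this way).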

How the results depend on the processing

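Over 162 results for the oxidase genes, 6966 values under the alternatives gave 6653 on the same side of the threshold, 156 that lost the call, 154 that gained it and 3 that reversed with a call. A change of direction between values that both missed the threshold was counted among the 6653. For the other named genes, at day 3 and day 5 in the mean of the fusions, the counts were 2976, 76, 44 and 0 of 3096. The reversed values were Rac2 after quantile normalization, -0.28 in the mean at day 5 and -0.47 in NUP98-JARID1A at day 5, and Ncf4 in NUP98-JARID1A day 5 against the controls without control replicate 3, -0.29 (leaving out 1 library at a time it ran from there to 0.36); for these the cause was not tested. The 6 ratio results kept their call under every alternative run on them, and those that passed kept their direction. Direction was compared only where a value passed, and the Cybb to Cyba difference at day 3 (0.0074) was too near 0 to have a firm one. Counts of oxidase genes called at day 5 in the mean stayed at 4 or 5 throughout, all higher except Rac2 with quantile normalization.

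Other counts of oxidase genes called, in either direction, moved as follows, main value first. At day 3 in the mean the count was 1, then 3 without the controls in the fit, 0 with untreated libraries titled day 5 only and 0 with the replicate block. Day 5 against day 3 in the mean gave 2, then 4 without the controls and 1 with no filter, with quantile normalization, with untreated libraries titled day 5 only and with the block. NUP98-DDX10 gave 0, then 1 (Rac2, lower) at day 3 fitted alone, and at day 5 1 without the controls and 2 fitted alone (Cybb higher, Rac2 lower). NUP98-JARID1A day 3 gave 1, then 3 with DESeq2, quantile normalization or no controls, 2 with edgeR or fitted alone, and 0 with no filter, untreated libraries titled day 5 only or the block. NUP98-JARID1A day 5 gave 5, all higher, and 3 with quantile normalization, of which 2 were higher and Rac2 lower; untreated against controls it gave 2 lower, and with quantile normalization 2 lower and 2 higher; day 5 against controls it gave 3, 5 with edgeR and 1 with the block. NUP98-NSD1 day 3 gave 0, then 1 with DESeq2 or no controls and 4 fitted alone (3 higher, Ncf1 lower). NUP98-NSD1 day 5 gave 2, then 5 fitted alone and 1 with no filter, TMM scaling, untreated libraries titled day 5 only or the block; day 5 against controls it gave 2, and 5 with edgeR or DESeq2. The F-test at day 5 gave 2, then 4 without the controls, 1 with no filter or quantile normalization, and 0 with untreated libraries titled day 5 only or the block. The F-test at day 3 gave 0, and 2 without the controls. The F-test of the untreated fusions gave 4 and 2 with the block. Untreated NUP98-NSD1 against NUP98-DDX10 gave 0, then 4 without the controls and 1 with DESeq2 or quantile normalization. With the block the calls of Ncf1 (0.62) and Rac2 (0.35) between untreated NUP98-JARID1A and NUP98-DDX10 did not pass.

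Leaving out 1 library at a time, the count ran from 0 to 3 for the mean at day 3, 1 to 4 for day 5 against day 3, 0 to 1 for NUP98-DDX10 day 5 and for NUP98-NSD1 day 3, 0 to 3 for NUP98-JARID1A day 3, 3 to 6 for NUP98-JARID1A day 5, 1 to 3 for NUP98-NSD1 day 5, 0 to 4 for the F-test at day 5, 0 to 2 for the F-test at day 3 and 0 to 4 for untreated NUP98-NSD1 against NUP98-DDX10. Against the controls it ran from 1 to 5 for untreated NUP98-DDX10, 2 to 4 for NUP98-DDX10 day 5, 2 to 5 for NUP98-JARID1A day 5, 3 to 5 for untreated NUP98-NSD1 and 1 to 5 for NUP98-NSD1 day 5.

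Title numbers did not pair the libraries throughout: of 27 pairs with the same number 5 correlated above 0.1, with r from -0.38 to 0.25, beside 16 of 54 other pairs. All 5 lay between untreated and day 5 libraries. Same-number r there was 0.14, 0.17 and 0.24 in NUP98-JARID1A, 0.14, 0.0096 and 0.25 in NUP98-NSD1 and -0.0056, -0.14 and -0.023 in NUP98-DDX10. Other pairs of those groups in NUP98-JARID1A ran from -0.41 to 0.35, so pairing of untreated with day 5 libraries was not settled. Groups of 3 or 4 libraries and a shared spread widened by the controls limited what could pass, and small changes in NUP98-DDX10 and at day 3 were not resolved. Depth did not limit the oxidase genes, whose lowest library value was 2264 normalized counts.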

Other observations

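Dendritic cell markers (11 genes) set 2 libraries of NUP98-NSD1 day 5 apart: their sum was 5407, 34949.6 and 24925 normalized counts in replicates 1, 2 and 3, beside 2066, 2665, 2030.2 and 3134 in the untreated libraries. Replicates 2 and 3 also held more Cybb, Cyba, Ncf1, Ncf4 and Rac2 than replicate 1, and less Rac1 (36868, 32105 and 35099.9). The part of these markers in the oxidase values was not tested.

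Mpo took a different course from the oxidase genes in NUP98-DDX10. Its level was 53617 ± 8922 normalized counts untreated (SD, n = 4), 74070.3 ± 7627 at day 3 (SD, n = 3) and 25015 ± 6093 at day 5, so the day 3 mean was above the untreated mean by more than 1 SD of either group. In NUP98-NSD1 it was 27634 ± 6278, 16056 ± 5787 and 3509 ± 1347. The F-test between fusions at day 3 did not pass for Mpo (limma adjusted p = 0.368).

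Reads of the NUP98-JARID1A construct appeared in the controls, at 2.52 to 72 normalized counts, while the NUP98-DDX10 and NUP98-NSD1 constructs were listed at 0 there. After doxycycline the eGFP level was 323 ± 17.2 in NUP98-JARID1A day 5 (SD, n = 3), 16.8 ± 4.68 in NUP98-NSD1 and 3.15 ± 0.936 in NUP98-DDX10.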
